A study of Mus musculus with 6 samples.

Results

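The TRIM family, a large set of ubiquitin ligases, was followed in human leukemic cells sorted from the bone marrow of mice with acute myeloid leukemia (AML). Members were taken by name: every row of the expression table called TRIM with a number (with or without a closing L), and the relatives PML and MID1, which are family members under older names. The rule found 43 of 13892 rows, namely 42 TRIM rows and PML. MID1 had no row in the table. All 43 members passed the filter on low values (at least 1 CPM, reads for each 1e+06 of normalized library size, in at least 3 libraries), so none was left out of the tests.

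TRIM proteins share a front part made of a RING finger, which recruits an E2 enzyme and passes ubiquitin to a substrate, 1 or more B-boxes and a coiled coil through which they pair. The tail differs from member to member and chooses the target: a PRY-SPRY domain in most antiviral members, a PHD finger and bromodomain in the chromatin-bound TIF1 members, NHL repeats in others. Many TRIM genes are induced by interferon and act on virus sensors and on NF-kB signalling. In blood, PML is known from its fusion with RARA in promyelocytic leukemia, TRIM33 from control of hematopoietic differentiation, and TRIM10 and TRIM58 from maturing red cells.

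The leukemia came from human hematopoietic stem cells carrying NPM1c (a nucleophosmin mutant found in AML), with GFP standing in for its expression, in humanized NSG mice, an immunodeficient strain. Both populations compared here shared that transgene and host. The bulk leukemic gate took GFP+ CD33+ cells. The gate for leukemic stem cells (LSC) added CD123+. The gate given for bulk cells does not name CD123, every mouse had its own transduction, and neither the ages of the mice nor the human donors are given in the sources used here. Each of 3 moribund mice gave 1 bulk and 1 LSC library, numbered here by mouse. P-values of the main fit measure the spread of libraries within each population and leave out the pairing by mouse. Those of the fit inside each mouse, described below, measure the spread of the LSC minus bulk step over these 3 mice.

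Libraries held 10669560 to 14933494 reads, of which 27.2% to 70.0% fell on MTRNR2L rows, nuclear look-alikes of mitochondrial ribosomal RNA. Bulk replicate 1 had the highest such share and the fewest other reads, 3423878, so that 3 reads equal 0.514 CPM there and 0.190 to 0.254 CPM elsewhere. IL3RA, which encodes CD123, stood at 1.54 to 2.37 CPM in bulk and at 139.5, 48.0 and 135 CPM in LSC replicates 1, 2 and 3, while CD33 was low throughout (1.17 to 13.1 CPM). The LSC libraries carried plasmacytoid dendritic cell genes: all 22 listed markers lay above bulk without overlap, beside 13.2% of all genes tested. Their summed level was 3756 to 6523 CPM against 273 to 593 CPM. The list was chosen with earlier results of these data known and includes IL3RA, the gene of the sort marker. Its count is therefore no separate support. In sorted bulk RNA, a change in the share of a cell type and a change in RNA per cell cannot be told apart.

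Against this background, 2 members were higher in LSC, TRIM8 and TRIM22, and none was lower (limma on log2 CPM, adjusted p of at most 0.05 over 13755 genes). That is 4.65% of the members, beside 2.71% of all genes tested that were higher, 1.33% that were lower and 4.04% in either direction, a share near that of the table. At an unadjusted p under 0.05, 3 of the 43 members were higher and 5 of the 43 lower, beside 10.2% and 10.1% of all genes. Voom, the other model tried, also called 2 higher and 0 lower, beside 2.31% and 1.15% of all genes. With the mouse as a block, a fit that compares LSC with bulk inside each mouse, TRIM65 was called higher as well and TRIM10, TRIM58 and TRIM21 lower, which made 6 members (14.0%), beside 16.0% of all genes (8.25% higher and 7.71% lower). The median log2 change (LSC minus bulk) over the 43 members was 0.04, against -0.0036 over all genes, and the median size regardless of sign was 0.57 in both.

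**Figure D1:**
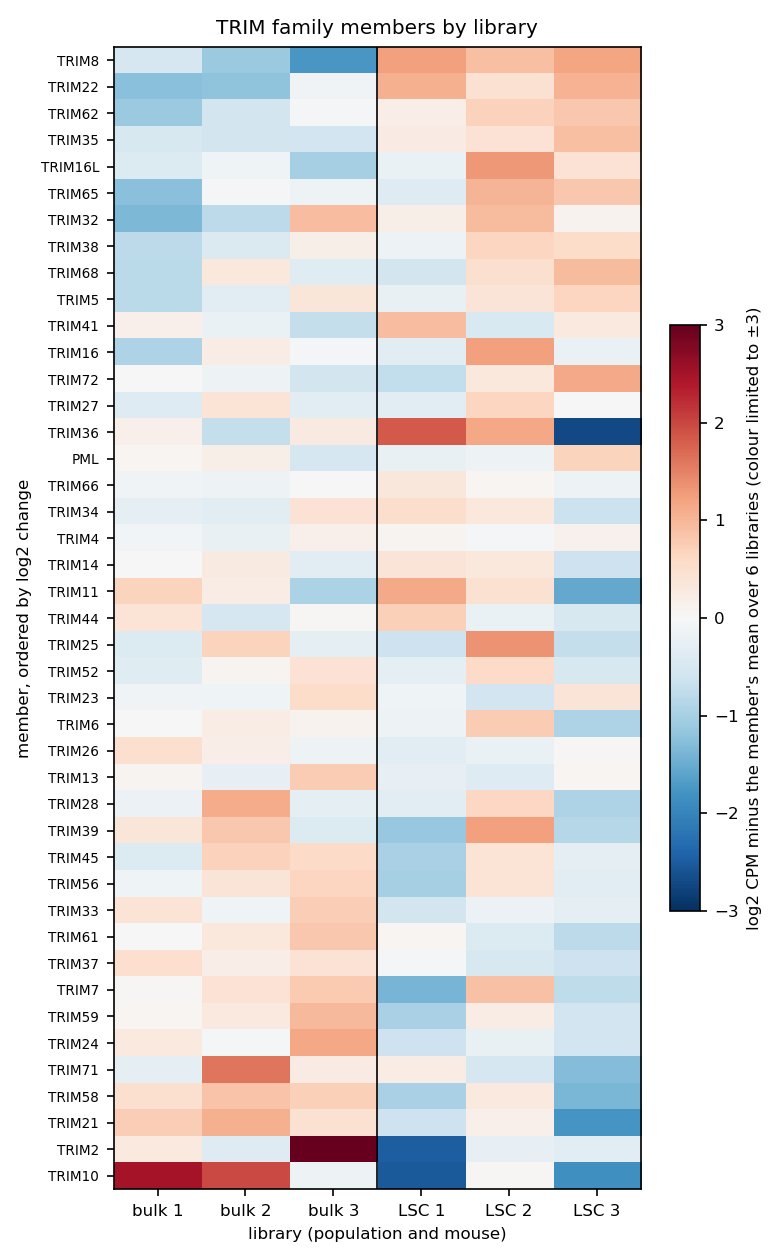
Level of each of the 43 members (rows, ordered by log2 change between populations) in each of the 6 libraries (columns), as log2 CPM minus the member's own mean, with the colour limited to 3 in either direction. Red in the LSC columns and blue in the bulk columns mark TRIM8 and TRIM22 at the top, and the deep red square of bulk 3 near the bottom is TRIM2 at 36.0 CPM.

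Directions were divided in the same way. 23 members had positive and 20 negative changes, and the LSC library was above the bulk library of its own mouse in all 3 mice for 10 members and below it for 11. Among the 13755 genes tested, 6846 had positive and 6909 negative changes, and 3761 were above in all 3 mice and 3551 below. Without overlap between groups, 4 members lay above bulk (TRIM8, TRIM22, TRIM35 and TRIM62), which is 9.30% beside 13.2% of all genes. Another 5 lay below (TRIM58, TRIM21, TRIM24, TRIM33 and TRIM37), which is 11.6% beside 11.9%.

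**Figure D2:**
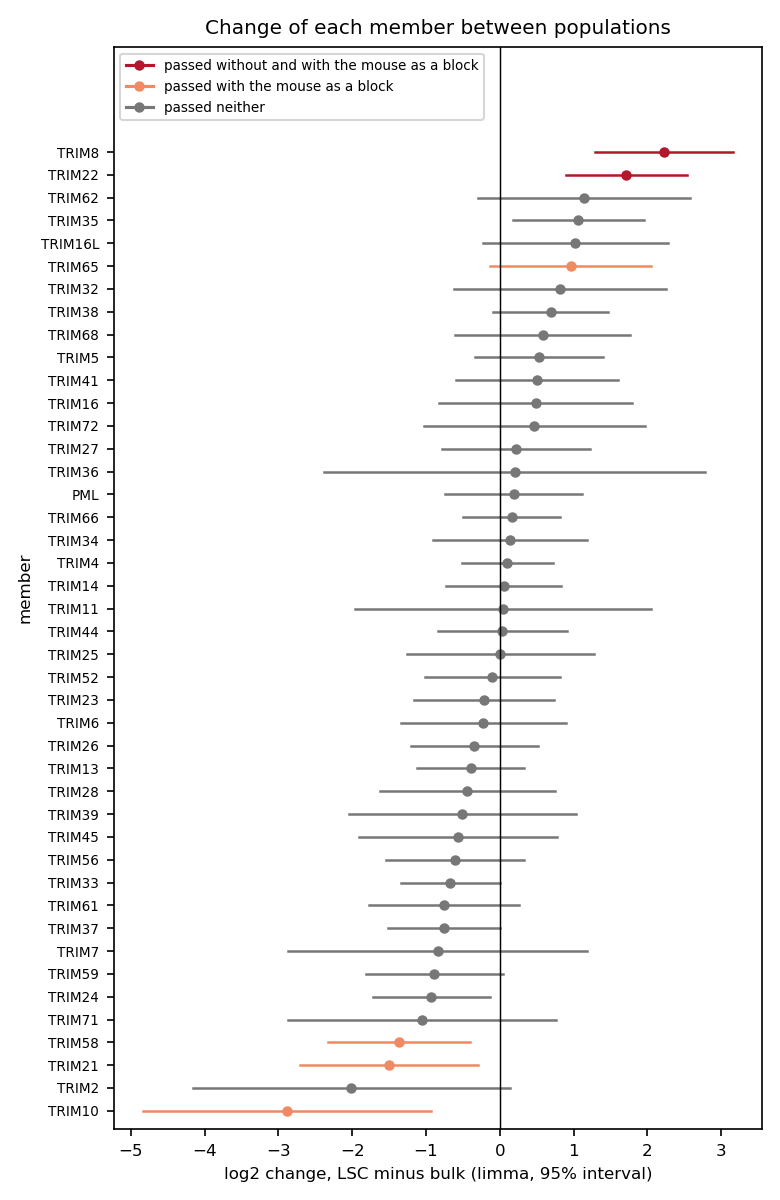
Fitted log2 change (LSC minus bulk) of each member with its 95% interval from limma without the block, coloured by the fit in which the member passed. The intervals of TRIM8 (1.29 to 3.16) and TRIM22 (0.89 to 2.54) lie well above 0, and those of most members include it.

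TRIM8, a ligase known to raise TNF and NF-kB signalling and to bind the cytokine signalling inhibitor SOCS1, had the clearest rise. It stood at 7.88, 5.17 and 3.33 CPM in bulk replicates 1, 2 and 3 and at 26.3, 20.9 and 25.2 CPM in the LSC libraries. The lowest LSC library was above the highest bulk library by more than the whole range within either group. Group means were 5.46 ± 2.29 and 24.2 ± 2.85 CPM (SD, n = 3), a log2 change of 2.22 (SE 0.41, limma adjusted p = 0.0216) or 4.67-fold, and it was higher in 3 of 3 mice. Reads behind these values numbered 159 in bulk and 1032 in LSC. The call is lost without bulk replicate 2 (adjusted p = 0.0625), LSC replicate 1 (0.0728) or LSC replicate 3 (0.0707), and without mouse 1, 2 or 3 (0.137, 0.129 and 0.0864), while the change stays between 1.88 and 2.46. With the mouse as a block it is 0.00455.

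TRIM22, an interferon-inducible antiviral protein that is also a p53 target, rose from a higher base. Bulk replicates 1, 2 and 3 held 66.3, 68.6 and 147 CPM, and the LSC libraries 330.0, 218 and 329 CPM. Bulk replicate 3 lay at about the level midway between the other bulk libraries and LSC replicate 2, and the groups still did not overlap. The log2 change was 1.72 (SE 0.37, limma adjusted p = 0.0342), or 3.28-fold, with mice 1, 2 and 3 at 2.32, 1.67 and 1.16. The call is lost without bulk replicate 1 (0.135), bulk replicate 2 (0.107), LSC replicate 1 (0.101), LSC replicate 3 (0.112), mouse 1 (0.313) or mouse 2 (0.133), and is 0.00308 with the block. LSC replicate 2, the lowest of the LSC libraries for TRIM8 and TRIM22, was also the lowest for IL3RA (48.0 CPM) and for the plasmacytoid markers (3756 CPM, against 6523 and 6384 CPM). Among bulk libraries, replicate 3 was the highest for IL3RA (2.37 CPM), for the plasmacytoid markers (593 CPM) and for TRIM22, but the lowest for TRIM8 (3.33 CPM). The part of those markers in the TRIM8 and TRIM22 values was not tested.

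**Figure D3:**
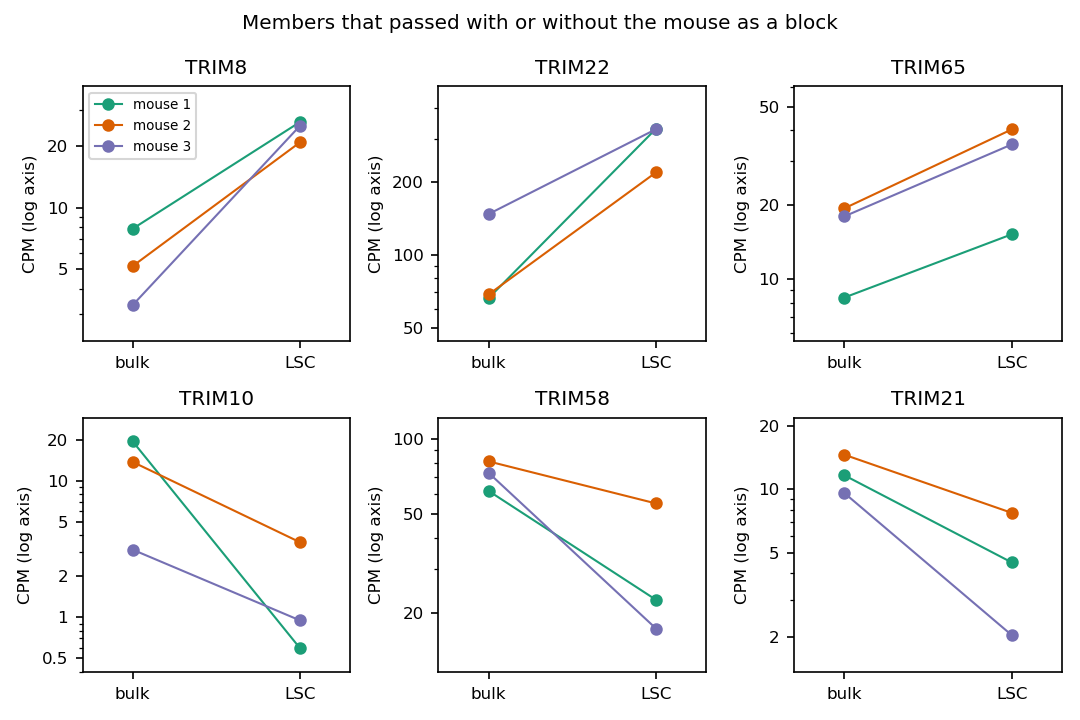
CPM on a log axis for the 6 members called with or without the block, with bulk and LSC of the same mouse joined by a line. All 3 lines rise for TRIM8, TRIM22 and TRIM65 and fall for TRIM10, TRIM58 and TRIM21, and TRIM65 and TRIM10 overlap between groups.

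Interferon-stimulated genes gave a divided picture around TRIM22. Of 30 tested members of that list 4 rose (IFI44, IFI44L, MX1 and STAT2) and none fell, beside 2.71% and 1.33% of all genes. With the block 6 were higher and 2 lower, beside 8.25% and 7.71% of all genes. Their summed level was 1056, 1081 and 1761 CPM in bulk replicates 1, 2 and 3 and 2089, 2453 and 1588 CPM in LSC. The sum went up in mice 1 and 2 and down in mouse 3, the mouse with the smallest TRIM22 change. The median step over the list was 0.33, 0.39 and 0.02 in mice 1, 2 and 3. In mouse 3 the 4 genes called without the block rose as well. XAF1, picked after its values were seen, fell there from 540 to 264 CPM. STAT2, a subunit of the interferon-activated factor, stood at 67.1, 71.6 and 51.3 CPM in bulk and rose to 176, 273 and 188 CPM in LSC, a log2 change of 1.73 with an adjusted p of 0.0139.

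Other members known to be induced by interferon or to act on virus sensing did not move together. TRIM21, the cytosolic antibody receptor known as Ro52, stood at 11.6, 14.6 and 9.60 CPM in bulk and at 4.51, 7.73 and 2.04 CPM in LSC. Every LSC library was below every bulk library, opposite in direction to TRIM22. Its log2 change of -1.50 (SE 0.54) missed the threshold without the block (adjusted p = 0.161) and passed with it (0.0361). That call is lost when the libraries of mouse 1 or mouse 2 are left out of the blocked fit (0.146 and 0.0991).

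TRIM65, a ligase for the RNA sensor MDA5, showed the reverse. Bulk libraries held 8.39, 19.3 and 17.9 CPM and LSC libraries 15.1, 40.4 and 35.1 CPM. Mouse 1 was low in both populations, so the groups overlapped, but the step inside each mouse was nearly equal, at 0.85, 1.06 and 0.97 on the log2 scale. Only 0.33% of its sum of squares was left after population and mouse, and 59.3% lay between mice. The change of 0.96 (SE 0.48) did not pass without the block (adjusted p = 0.302) and did with it (0.0395), except under quantile normalization (0.0505) and without mouse 1 (0.146) or mouse 2 (0.196).

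TRIM38, which restrains Toll-like receptor and TNF signalling, had 80.6, 104 and 158 CPM in bulk and 125, 219 and 204 CPM in LSC. It was higher in all 3 mice, but its change of 0.69 missed the threshold (adjusted p = 0.299, and 0.0568 with the block). TRIM5, the restriction factor that binds retroviral capsids, had 23.3, 32.4 and 52.5 CPM in bulk and 35.1, 53.6 and 64.5 CPM in LSC, a change of 0.54 (adjusted p = 0.469). Both genes were lowest in mouse 1 in each population. TRIM56, which acts on the STING pathway, went the other way in its mean, at 29.9 ± 7.74 CPM in bulk and 20.6 ± 9.77 CPM in LSC (change -0.61, adjusted p = 0.448).

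TRIM25 and TRIM14 lie outside the rule by which members were named and were chosen for their roles after their values were seen. TRIM25, the ligase that activates the RNA sensor RIG-I, was highest in mouse 2 in both populations. Mouse 2 held 45.6 CPM in bulk and 73.0 CPM in LSC, against 21.6 and 18.8 CPM in mouse 1 and 23.9 and 17.5 CPM in mouse 3. Mice took 89.7% of its sum of squares, and the population change was 0.01 with a 95% interval of -1.26 to 1.28. TRIM14, an adaptor on mitochondria, was lowest in mouse 3 (76.2 and 62.9 CPM, against 97.8 to 127 CPM in the other libraries), with a population change of 0.05. These intervals are wide, and a missed threshold does not show equal levels.

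Sensors and adaptors on which such ligases act were examined next. Of 21 genes of RIG-I, cGAS and Toll-like receptor signalling, 3 rose and none fell, with or without the block, and the median change was 0.07. Among all genes 4.04% were called without the block and 16.0% with it. The 3 were IRF7, TLR7 and TLR9 (log2 changes 4.82, 4.22 and 4.09), of which the TLR genes are also on the plasmacytoid list. A further 4 had changes over 1 in size that missed the threshold in both fits: IKBKE (-2.29), TMEM173 (-1.42), which encodes STING, IRF3 (1.11) and RNF135 (1.07). That makes 7 of 21 past this size (33.3%), beside 26.9% of all genes. DDX58, which encodes RIG-I, stood at 44.8 ± 26.5 CPM in bulk and 23.8 ± 3.62 CPM in LSC (adjusted p = 0.373), and MAVS at 147 ± 36.9 and 157 ± 16.7 CPM (0.832); these 2, like the 4 above, were chosen after their values were seen. Among 16 E1 and E2 enzymes that feed RING ligases none passed without the block. With it UBE2J1 was higher (130 ± 16.8 to 309 ± 90.0 CPM, adjusted p = 0.0056) and UBE2E1 lower (95.4 ± 46.5 to 38.4 ± 17.0 CPM, 0.0162). That is 1 of 16 in each direction, beside 8.25% of all genes higher and 7.71% lower with the block.

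Members tied to red cell maturation were lower in LSC, by the blocked fit. TRIM10, also called HERF1 and needed for terminal erythroid differentiation in culture, stood at 19.5, 13.8 and 3.13 CPM in bulk and at 0.591, 3.55 and 0.948 CPM in LSC. Bulk replicate 3 was low and fell below LSC replicate 2. Reads numbered 326 in bulk and 77 in LSC, of which LSC replicate 1 had 8. The log2 change was -2.89 (SE 0.87, adjusted p = 0.104, and 0.0246 with the block). Left without mouse 1 or mouse 2, the blocked value no longer passed (-1.83, adjusted p = 0.15, and -3.35, adjusted p = 0.0906). Without bulk replicate 3 the unblocked test passed, at -3.68.

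TRIM58, a ligase that removes dynein in late erythroblasts, had 61.6, 81.0 and 72.9 CPM in bulk and 22.5, 54.9 and 17.3 CPM in LSC. The groups did not overlap, and LSC replicate 2 came closest to bulk. Its change of -1.36 (SE 0.43) had an adjusted p of 0.118, and of 0.0193 with the block. The blocked call is lost without mouse 1 (0.103), and without LSC replicate 2 the unblocked test passed (-1.85, adjusted p = 0.0258).

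Erythroid markers were also lower in LSC than in bulk. All 19 tested markers had negative changes, beside 6909 of the 13755 genes tested. Of the 19, 4 passed (CA1, HEMGN and HBB among them), beside 1.33% of all genes called lower. With the block 16 passed, beside 7.71%. Their summed level was 2319, 2468 and 652 CPM in bulk replicates 1, 2 and 3 and 355, 778 and 103 CPM in LSC. Bulk replicate 3 was the lowest of the bulk libraries for the markers and for TRIM10 but not for TRIM58, and LSC replicate 2 the highest of the LSC libraries for all of them. HEMGN, which encodes hemogen, a nuclear protein of blood cell precursors, stood at 337 ± 148 CPM in bulk against 50.3 ± 29.4 CPM in LSC (SD, n = 3). The part of erythroid cells in the TRIM10 and TRIM58 values was not tested.

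**Figure D4:**
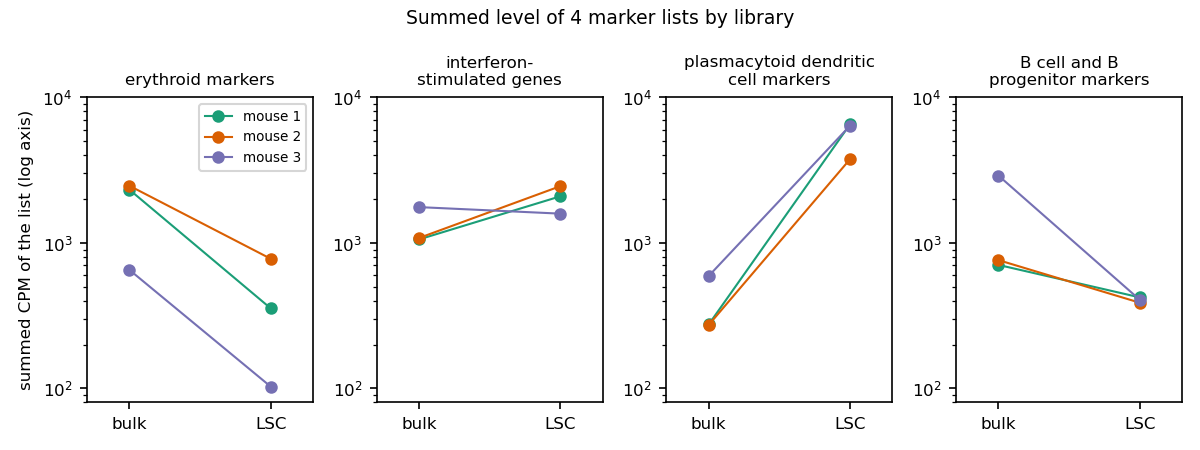
Summed CPM on a log axis of 4 marker lists in each library, with bulk and LSC of the same mouse joined. The erythroid sum falls and the plasmacytoid sum rises in all 3 mice. The interferon-stimulated sum goes down in mouse 3 alone, where the list's median step was 0.02. B lineage markers are highest in bulk replicate 3 at 2899 CPM.

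The TIF1 group binds chromatin and represses or co-activates transcription. None of its 4 members passed in either fit. TRIM24, which reads acetylated histone H3 and marks p53 for degradation, had 85.1, 67.1 and 154 CPM in bulk and 45.4, 59.7 and 46.8 CPM in LSC. TRIM33, a partner and ligase of SMAD4, had 268, 185 and 336 CPM in bulk and 138, 180.1 and 166 CPM in LSC. In both genes all LSC libraries lay below all bulk libraries, mouse 2 showed almost no step (-0.17 and -0.04), and mice 1 and 3 steps of -0.91 and -1.72 for TRIM24 and -0.96 and -1.02 for TRIM33. Log2 changes were -0.93 (SE 0.35, adjusted p = 0.185, 0.0646 with the block) and -0.67 (SE 0.30, 0.244 and 0.0858).

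TRIM28 and TRIM66 complete the group and were described after their values were seen. TRIM28 (KAP1), the co-repressor recruited by KRAB zinc finger proteins, stood at 26.5 and 18.8 CPM in bulk and LSC of mouse 2, against 10.8 and 9.68 CPM in mouse 1 and 10.2 and 6.42 CPM in mouse 3. Mice took 86.8% of its sum of squares, and LSC was slightly below bulk in every mouse (change -0.44, interval -1.63 to 0.75). TRIM66, which lacks the RING, stayed within 29.8 to 41.8 CPM in all libraries. Among 18 genes that work with TRIM28 in silencing none passed without the block. With it DNMT1 (log2 change -1.52, adjusted p = 0.00154), CBX5 (-1.20, 0.0138), which encodes HP1 alpha, and CHD4 (-0.79, 0.0297) were lower, and 14 of the 18 had negative changes. These calls cover 3 of the 18, beside 16.0% of all genes called with the block (7.71% lower). Negative changes were found in 6909 of the 13755 genes tested. Genes of the G2 and M phases, by which cycling cells are known, were lower too. Of these 35 genes 12 passed, beside 1.33% of all genes called lower, and 27 with the block, beside 7.71%. The summed levels of these genes were 5802 to 10418 CPM in bulk and 1474 to 2569 CPM in LSC. The part of cycling cells in the TIF1 and silencing values was not tested.

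PML builds the nuclear bodies that bear its name. Its level was 10.6, 11.4 and 7.10 CPM in bulk and 8.65, 9.19 and 16.0 CPM in LSC. Mice 1 and 2 showed slightly less in LSC (-0.29 and -0.31 on the log2 scale) and mouse 3 more (1.17), so 90.3% of the sum of squares was left after population and mouse. The change of 0.19 had a 95% interval of -0.74 to 1.12 and an adjusted p of 0.830. Of 20 tested genes of PML bodies none passed, and with the block SENP1, a SUMO protease, was lower (70.1 ± 26.5 to 36.2 ± 7.06 CPM, adjusted p = 0.041), as was the kinase gene HIPK2 (81.7 ± 17.5 to 45.0 ± 29.0 CPM, 0.0498). That is 2 of 20, beside 16.0% of all genes called with the block (7.71% lower). Among 9 tested genes of the p53 pathway, which several TRIM proteins regulate, only CDKN1A, the cell cycle inhibitor p21, passed in either fit (4.75 ± 2.42 to 51.3 ± 29.9 CPM, log2 change 3.39, adjusted p = 0.00805). That is 1 of 9, beside 4.04% of all genes called without the block (2.71% higher) and 16.0% with it (8.25% higher).

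All 5 members with a MATH, ARF or filamin domain or a membrane anchor had negative changes, but none passed in either fit. Among the 13755 genes tested 6909 had negative changes. TRIM37, which limits centriole assembly, had 22.1, 18.0 and 21.2 CPM in bulk and 15.4, 11.2 and 10.2 CPM in LSC. The groups did not overlap, and the change was -0.76 (SE 0.34, adjusted p = 0.249, 0.106 with the block). TRIM59, a membrane-anchored member, had 23.5, 27.7 and 44.1 CPM in bulk and 11.5, 26.4 and 15.0 CPM in LSC (change -0.88, adjusted p = 0.268). The remaining 3, TRIM13, TRIM23 and TRIM45, had changes of -0.39, -0.21 and -0.57.

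The table held 3 members with NHL repeats, a tail that binds RNA or protein targets. TRIM2, a neuronal ligase for the neurofilament light chain, stood at 36.0 CPM in bulk replicate 3 and at 0.739 to 5.14 CPM in the other 5 libraries. Of its 630 bulk reads, 562 came from that library. The step inside mice 1, 2 and 3 was -2.76, 0.14 and -3.41, and the change of -2.01 (SE 0.95) did not pass (adjusted p = 0.274). B cell and B progenitor markers were also highest in bulk replicate 3, at 2899 CPM against 388 to 761 CPM elsewhere, with PAX5, a B lineage factor, at 491 CPM there. The part of B lineage cells in the TRIM2 value was not tested. TRIM71 (LIN41), a let-7 target of early stem cells, was near the lower limit at 0.583 to 4.49 CPM, and TRIM32 stood at 1.88 to 9.32 CPM.

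**Figure D5:**
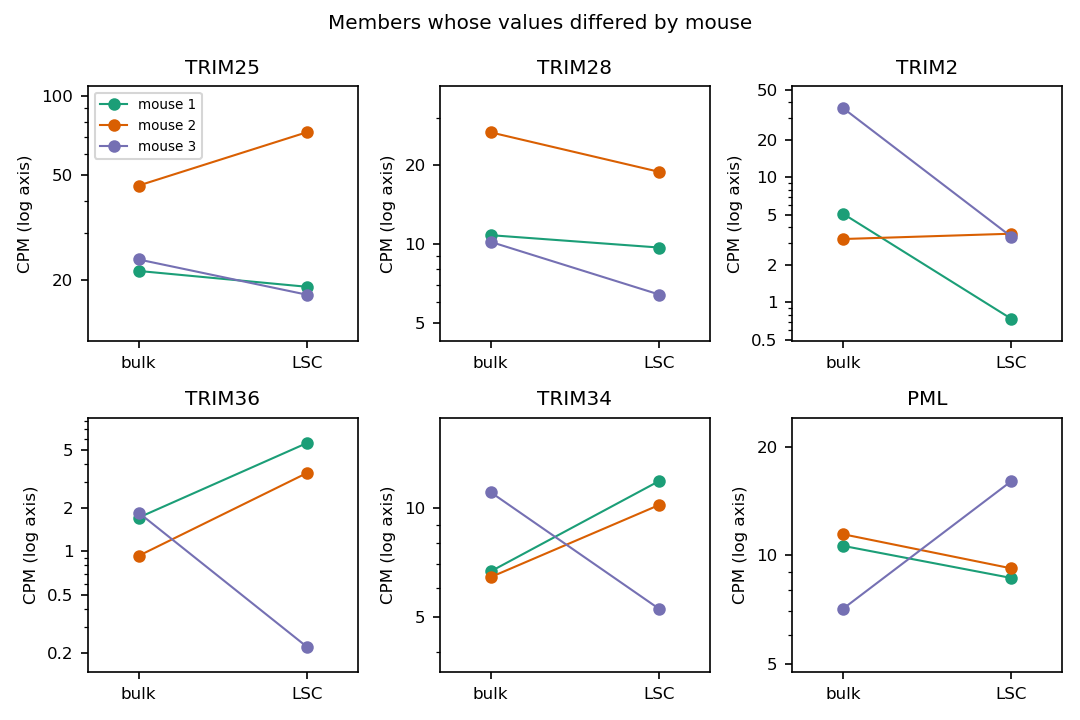
CPM on a log axis for 6 members picked after their values were seen, with bulk and LSC of the same mouse joined. Mouse 2 is highest in both populations for TRIM25 and TRIM28, bulk of mouse 3 stands apart for TRIM2, and the mouse 3 line runs against the other lines for TRIM36, TRIM34 and PML.

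Mouse 3 went against mice 1 and 2 in several members. In 22 of the 43 members the direction was not the same in all 3 mice, beside 6443 of the 13755 genes tested. TRIM36, the only microtubule-binding (COS box) member in the table, had 1.71, 0.932 and 1.86 CPM in bulk and 5.62, 3.49 and 0.219 CPM in LSC, the last value being 3 reads. The steps were 1.70, 1.88 and -2.98, and the sign of the pooled change (0.20, SE 1.15) turned with the libraries left out. TRIM34, a relative of TRIM5, had steps of 0.83, 0.66 and -1.07 and was described after its values were seen. The median step over all 43 members was 0.05, 0.20 and -0.50 in mice 1, 2 and 3, beside 0.09, 0.01 and -0.03 over all genes. With 1 library for each population of a mouse, differences between mice could not be tested.

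The PRY-SPRY group held 24 of the 43 members, 17 of them (70.8%) with positive changes, beside 49.8% of all genes. Its median was 0.18, against -0.0036 over all genes. The group contained TRIM22, TRIM65, TRIM10, TRIM58 and TRIM21, so calls in both directions came from the same subfamily. TRIM35, a regulator first found in a hematopoietic lineage switch, held 5.31, 5.08 and 4.99 CPM in bulk and 8.79, 10.1 and 14.0 CPM in LSC. Bulk libraries were nearly equal and every LSC library was higher, but the change of 1.07 (SE 0.39) did not pass (adjusted p = 0.176, 0.0786 with the block). TRIM62 had the same form at a low level, 0.856 to 1.79 CPM in bulk and 2.14 to 3.28 CPM in LSC (adjusted p = 0.349). TRIM16L, a shortened copy of TRIM16, had a change of 1.03 (adjusted p = 0.336) against 0.49 for TRIM16, and reads could be divided unevenly between these near-identical genes. The neighbours TRIM6 and TRIM34 share a read-through transcript, which makes their values uncertain in the same way. TRIM61, of the group without a tail domain, had a change of -0.76 (adjusted p = 0.381).

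The 22 members outside the naming rule had log2 changes from -0.84 to 0.81 and adjusted p of 0.506 or more without the block, and of 0.234 or more with it. TRIM32, 1 of them, was called higher in the blocked fit that left out mouse 3. They ranged from well measured genes such as TRIM4, at 38.8 to 50.2 CPM in all libraries, and TRIM44, which lacks the RING, at 44.3 to 104 CPM, to TRIM7, at 0.369 to 1.84 CPM, and TRIM11, at 0.511 to 3.33 CPM. In 6 members some library had fewer than 10 reads (TRIM10, TRIM62, TRIM71, TRIM7, TRIM36 and TRIM11). Relatives outside the rule included MEFV, the pyrin gene, and RNF135, which acts on RIG-I. All 4 of those tested had positive changes, beside 49.8% of all genes, and none passed. CPM is not scaled to transcript length, so levels were not ranked between genes.

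The typical member had 26.3% of its sum of squares between populations, 40.0% between mice and 16.6% left over (medians over the 43, which need not add up), beside 26.8%, 43.8% and 15.9% over all genes. The authors' deposited table puts no member below a false discovery rate of 0.05, nor any other gene. Among members the lowest rates in the authors' deposited table were 0.187 for TRIM8 and 0.236 for TRIM22, and 5 members (11.6%) had an unadjusted p under 0.05 there, beside 12.4% of all genes. These rest on the same libraries and are no separate support.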

How the data were processed

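Sorted cells gave total RNA, amplified as cDNA (NuGEN Ovation, per the labels' protocols). RSEM, Bowtie2, edgeR and the build hg19 appear in the submitters' processing notes without version or role. Values deposited for each sample are on a log2 CPM scale with a small prior (floor 0.0197 CPM), a scale read from the values. Their table also gives a log2 fold change (bulk minus LSC), a likelihood ratio score, p-values and false discovery rates, per the file headers. Removing the floor and dividing by the smallest step gave reads that were whole within 0.1 for 100% of the lower values; such reads are estimates, and limits from them cover counting error only. All 6 sample columns matched a label. No 2 libraries agreed within sampling noise (chi-square per degree of freedom 71.4 to 384).

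The deposited log2 values were fitted with limma 3.58.1 (R 4.3.3; eBayes with trend, two-sided, Benjamini-Hochberg over 13755 genes, threshold 0.05), keeping genes that reached 1 CPM in 3 or more libraries. Recovered reads were used for voom alone, as an alternative. With 3 libraries against 3, an exact permutation test cannot go below 0.1. Libraries of a number come from 1 mouse, which pairs them; correlations of their deviations were 0.33, 0.35 and 0.30. Both fits were tried on simulated reads. With a mouse effect present, the fit without the block recovered 0% of 2-fold and 29.9% of 4-fold changes, and the blocked fit 38.8% and 98.5%. Without a mouse effect the shares were 28.4% and 98.5%, and 29.9% and 98.5% with the block. The simulated spread was a chosen setting, so these shares need not hold for the libraries here.

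Named members were PML, those past the threshold with or without the block, the largest moderated statistics up to 20, and the leading 2 of each tail group; of each other list up to 3 genes were named. Every other gene named was chosen after its values were seen. Members and lists were chosen with earlier results of these data known. Alternatives were other pseudocounts, filters, scalings, voom, eBayes without trend, the block, and leaving out libraries or mice; 7 that join the block with another choice were added after seeing the data. The sequences at hand were of mouse, so none is printed.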

Additional observations from a re-analysis of the deposited data

How the results depend on the processing

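Pseudocounts of 1 and 5 CPM, no filter, a filter of 5 CPM, upper-quartile and quantile scaling, scaling to reads outside MTRNR2L, and voom each called TRIM8 and TRIM22 higher and no member lower. These calls rest on few libraries. Leaving out 1 library or 1 mouse gave 0 to 2 members higher and 0 to 1 lower, with 37 to 346 genes higher and 0 to 169 lower in the whole table, and eBayes without trend gave 0 and 0 members (197 and 54 genes). In both whole-table pseudocount fits more genes were lower, 302 and 280. With the replicate block 3 members were higher and 3 lower (1135 and 1060 genes), the 4 added calls being those of TRIM65, TRIM10, TRIM58 and TRIM21, and it changed no other call of a named member. The block gave 4 and 5 members with voom (1216 and 1217 genes), 3 and 3 with upper-quartile scaling (1054 and 1193), 3 and 3 with quantile normalization (1140 and 1205), and 4 and 3 with scaling outside MTRNR2L (1223 and 912). On 2 mice it gave 2 to 5 members higher and 0 to 3 lower (386 to 1747 and 296 to 1567 genes, with 344 lower without mouse 1). Further members were called in some of these blocked fits: TRIM38 higher with voom, quantile normalization (where TRIM65 was not called), scaling outside MTRNR2L and without mouse 3, TRIM32 higher without mouse 3, TRIM2 lower with voom and without mouse 2, and TRIM24 lower with voom.

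The sign of PML was reversed without bulk replicate 3 (-0.02), LSC replicate 3 (-0.09) and mouse 3 (-0.30, also with the block). That of TRIM36 was reversed without bulk replicate 2 (-0.10), LSC replicate 1 (-0.67), LSC replicate 2 (-0.33), mouse 1 (-0.55) and mouse 2 (-0.64), the last 2 also with the block. Over all fits that left out a library or mouse, PML ran from -0.30 to 0.44 and TRIM36 from -0.67 to 1.79. The cause was not tested. The other 19 named members kept their sign under all 26 alternatives in which they were tested; a filter of 5 CPM left 32 of the 43 members. Depth limits members under 10 reads in a library: 4 in LSC replicate 3, 3 in bulk replicate 1 and 2 in LSC replicate 1.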
